A study of Mus musculus with 6 samples.

Results

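The genes described here are the T cell receptor beta segments of mouse chromosome 6 and the gamma segments of chromosome 13, measured by RNA sequencing in regulatory T cells (Tregs) of spleen and lymph nodes. They were taken as the rows annotated as T cell receptor segments on these chromosomes, pseudogenes included, with a sum of at least 10 counts over the 6 libraries. This gave 53 of the 55840 genes in the table, 43 beta and 10 gamma, 4 of them pseudogenes. Of the 68 annotated segments, 9 had no counts and 6 had between 1 and 9. The beta members were 25 V, 2 D, 14 J and 2 constant (C) segments, and the gamma members 3 V, 3 J and 4 C segments. The members were thus chosen by their summed counts, a value that takes no account of genotype. The samples were 3 libraries labelled WT and 3 labelled Exon2KO, named Foxp3∆2 in the study's title, that is, Tregs whose Foxp3, the transcription factor that defines this lineage, lacks exon 2. Age, sex, strain and the way the cells were isolated are not given in the sources used here. The labels call the samples of each genotype biological replicates without saying whether each came from its own animal, so the p-values measure the spread between these samples. Libraries are named by genotype and by the number in their column name, 2, 6 or 20.

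A beta chain is built in the thymus when a D segment is joined to a J segment and a V segment is then joined to the pair. The joined exon is spliced in the RNA to a constant region. The beta locus holds a pair of clusters, Trbd1 with the Trbj1 segments and Trbc1, and downstream of it Trbd2 with the Trbj2 segments and Trbc2. The V segment contributes most of the surface that meets the peptide and MHC, while the constant region anchors the chain in the membrane beside the CD3 subunits. The gamma chain pairs with delta in gamma-delta T cells, and gamma segments can also be rearranged in cells that end up with an alpha-beta receptor.

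The sequences on which the reading of the constant regions rests are printed here because reads can be told apart only where copies differ. Trbc1 lies at chr6:41538218-41539881 and Trbc2 at chr6:41546730-41548352, both on the plus strand of GRCm38 (mm10). Their first coding exons, 375 bases long, differed at 1 base. The later coding exons, 143 bases together, differed at 22 bases. They are given 5′ to 3′ from the GENCODE transcripts, with capitals in Trbc2 at the bases that differ from Trbc1.
Trbc1: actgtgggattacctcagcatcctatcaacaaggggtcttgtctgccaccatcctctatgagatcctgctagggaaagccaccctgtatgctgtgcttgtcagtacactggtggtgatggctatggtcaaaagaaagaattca
Trbc2: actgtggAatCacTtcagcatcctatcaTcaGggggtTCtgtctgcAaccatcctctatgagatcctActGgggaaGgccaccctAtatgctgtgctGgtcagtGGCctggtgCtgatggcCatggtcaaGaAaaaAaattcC

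Of the gamma constant regions, Tcrg-C1 (chr13:19214103-19217024, plus strand), Tcrg-C2 (chr13:19304649-19307551, minus strand) and Tcrg-C4 (chr13:19344558-19352756, plus strand) had enough counts to be tested. The opening 150 bases of their first exons are given below, with capitals at the bases that differ from Tcrg-C1. Over this stretch Tcrg-C2 differed from Tcrg-C1 at 4 bases and Tcrg-C4 at 15. Over the whole first exon of 330 bases the differences numbered 9 for Tcrg-C2, 13 for Tcrg-C3 and 59 for Tcrg-C4.
Tcrg-C1: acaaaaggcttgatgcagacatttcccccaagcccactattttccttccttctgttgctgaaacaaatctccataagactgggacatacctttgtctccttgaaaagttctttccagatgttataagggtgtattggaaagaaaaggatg
Tcrg-C2: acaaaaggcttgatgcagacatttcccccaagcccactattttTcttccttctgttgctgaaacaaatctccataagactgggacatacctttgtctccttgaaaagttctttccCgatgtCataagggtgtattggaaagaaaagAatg
Tcrg-C4: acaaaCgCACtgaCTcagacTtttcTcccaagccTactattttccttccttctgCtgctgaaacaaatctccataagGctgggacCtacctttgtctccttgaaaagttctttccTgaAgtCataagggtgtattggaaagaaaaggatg

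The beta J segments are 46 to 54 bases long and the gamma J members 60 or 61. The sequences below show the segment with the highest mean share of J counts, the segment whose share was lower in every Exon2KO library, and the J pseudogene of the cluster of Trbc2. A J segment of the usual kind encodes a phenylalanine and a glycine that shape the end of the antigen-binding loop, and the capitals mark the letters TTTGG or TTCGG that can encode them. Searched on both strands, these letters were found in 11 of the 14 beta J members, each time on the coding strand, and on the coding strand of none of the 3 gamma J members. Trgj4 held them on the other strand. Among the opening 48 bases of the longest transcript of 55389 genes, 14.2% held them on either strand. The match describes the letters only.
Trbj2-7: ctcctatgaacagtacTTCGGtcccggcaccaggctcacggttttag
Trbj1-1: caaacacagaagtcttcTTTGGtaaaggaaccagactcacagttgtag
Trbj2-6: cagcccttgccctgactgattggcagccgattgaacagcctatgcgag

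Each library held between 17998216 and 21003496 counts, and the members took 0.140% to 0.171% of them. The Treg markers Foxp3, Cd4 and Cd3e were abundant in every library. Foxp3 ranged from 602 to 783 CPM (counts scaled to a common library size) in WT and from 684 to 925 CPM in Exon2KO, a count over the whole gene that does not read exon 2 by itself. Of the 7 Treg markers listed, Il2ra, Ctla4 and Ikzf2 were lower in Exon2KO by edgeR's quasi-likelihood test (adjusted p = 0.0429, 0.00677 and 0.0240). With the column number as a block Tnfrsf18 was lower too (adjusted p = 0.000209, and 0.0585 without it). Marker lists for gamma-delta, CD8 and NK, NKT, B, myeloid and erythroid cells gave no call in edgeR's test without the block, and with it Cd79b and Lyz2 were lower (adjusted p = 0.00501 and 0.0413). Both libraries numbered 20 stood apart from the other libraries on the principal component that held 33.2% of the variance.

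No member was called between the genotypes in the fit without a block. Of the 53 members, 41 passed the filter on low counts and were tested (38 beta and 3 gamma), and 0 of these had an adjusted p under 0.05 in edgeR's quasi-likelihood test, against a background of 2.33% of all 14919 tested genes. The lowest adjusted p among them was 0.104, for Tcrg-C4. At an unadjusted p under 0.05 there were 7 members, beside 12.1% of all tested genes, and DESeq2 and limma-voom also called 0 members (backgrounds 3.78% and 2.2%). The authors' deposited table lists 0 members with an adjusted p under 0.05, the lowest being 0.0506 for Tcrg-C4. Of the 24985 genes for which it gives this comparison, 2.55% were under 0.05. With the column number as a block, 3 members were called (Trbc2, Trbv2 and Tcrg-C4), where the background was 9.72%. Of these, 2 were higher, beside a background of 3.93%, and 1 was lower, beside one of 5.79%. Without both libraries numbered 20, 1 member was called (Tcrg-C4), beside a background of 2.43%. The 12 members that were not tested were Trbv4, Trbv5, Trbv12-3, Trbv21, Trbv22, Tcrg-V1, Tcrg-V6, Trgv2, Trgj1, Trgj2, Trgj4 and Tcrg-C3.

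The fold changes of the beta segments lay mostly above 0. V, D, J and C segments are parts of the same joined transcripts, so their fold changes are not independent of each other. The log2 fold change of Exon2KO over WT was positive for 29 of the 38 tested beta members, or 76.3%, where 51.8% of all tested genes were positive. Its median was 0.20 over these beta members, −0.28 over the 3 tested gamma members and 0.0084 over all tested genes. The beta median was 0.079 without the WT library numbered 20. The gamma median was 0.029 without the Exon2KO library numbered 6, −0.096 without the WT library numbered 2 and −0.12 without the Exon2KO library numbered 2. In CPM, the 3 libraries of one genotype lay wholly above or below those of the other for 9 of the 41 tested members, beside 17.7% of all tested genes. The 6 that were higher in Exon2KO (Trbv13-2, Trbv13-3, Trbv14, Trbv29, Trbj2-7 and Trbc2) stand beside a background of 8.35%, and the 3 that were lower (Trbv30, Trbj1-1 and Tcrg-C4) beside one of 9.32%. In bulk RNA, fewer cells that carry a segment and less of its RNA per cell cannot be told apart.

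**Figure D1:**
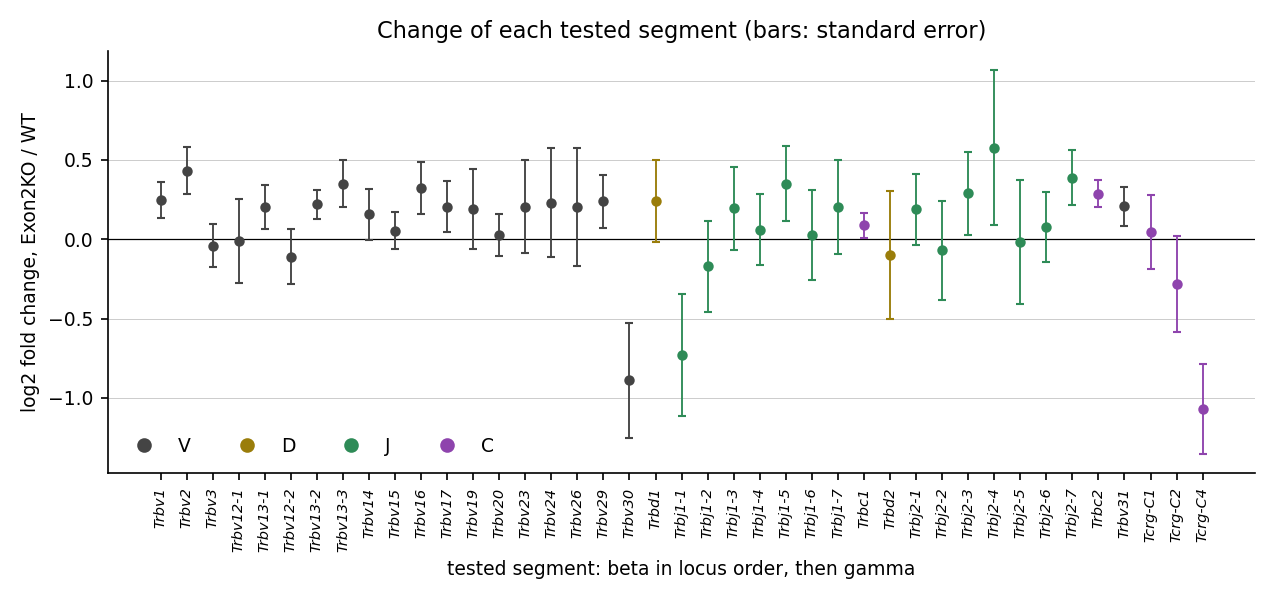
The log2 fold change of Exon2KO over WT on the vertical axis is shown for each of the 41 tested segments, beta in order along the locus and then gamma, with bars for the standard error and colours for V, D, J and C segments. Most beta points lie between 0 and 0.5, and Trbv30, Trbj1-1 and Tcrg-C4 lie lowest.

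Trbc2 and Trbc1, the beta constant regions, had more counts than any other member. Trbc2 had 12240, 12483 and 12369 counts in the WT libraries numbered 2, 6 and 20, and 14039, 14904 and 14270 in the Exon2KO libraries in the same order. These were 657, 688 and 580.4 CPM in WT and 780.2, 765 and 803 CPM in Exon2KO. Every Exon2KO library was above every WT library, and the WT library numbered 20 was the lowest. The log2 fold change was 0.29 (SE 0.08), with an adjusted p of 0.155 in edgeR's quasi-likelihood test, and with the column number as a block it was 0.29 with an adjusted p of 0.0178. The authors' deposited table gives an adjusted p of 0.0621 for Trbc2.

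Trbc1 had 379, 397 and 343 CPM in WT and 404, 392 and 395 CPM in Exon2KO. The groups overlapped, since the WT library numbered 6 lay above both the Exon2KO libraries numbered 6 and 20. Its log2 fold change was 0.09 (SE 0.08), with an adjusted p of 0.780 in edgeR's test. Per length, the level of Trbc2 was 927 ± 79.8 CPM per kilobase in WT and 1131 ± 27.9 in Exon2KO (SD, n = 3), and that of Trbc1 498 ± 37.3 and 530.2 ± 8.34. Trbc2 was thus the more abundant of the pair per length in both genotypes.

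The share of Trbc2 among the counts of both beta constant regions was higher in Exon2KO. It was 63.4%, 63.4% and 62.9% in the WT libraries numbered 2, 6 and 20, and 65.9%, 66.1% and 67.0% in the Exon2KO libraries. The 95% Wilson intervals of the WT libraries ran from 62.2% to 64.1% and those of the Exon2KO libraries from 65.2% to 67.7%, so that no interval of one genotype met one of the other. These intervals cover counting error within a library only and not the spread between samples. Reads copied by PCR are not independent molecules, so the intervals can also be too narrow. The means were 63.2% ± 0.294 and 66.3% ± 0.619 (SD, n = 3), a difference of 3.12 percentage points, and 2.60 points without both libraries numbered 20. No test was made on this share. Of the 50-base windows of the Trbc1 transcript 283 of 688 were shared with Trbc2, which leaves 58.9% of Trbc1 and 56.0% of Trbc2 unique, and how the authors counted reads that fit both is not given in the sources used here.

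**Figure D2:**
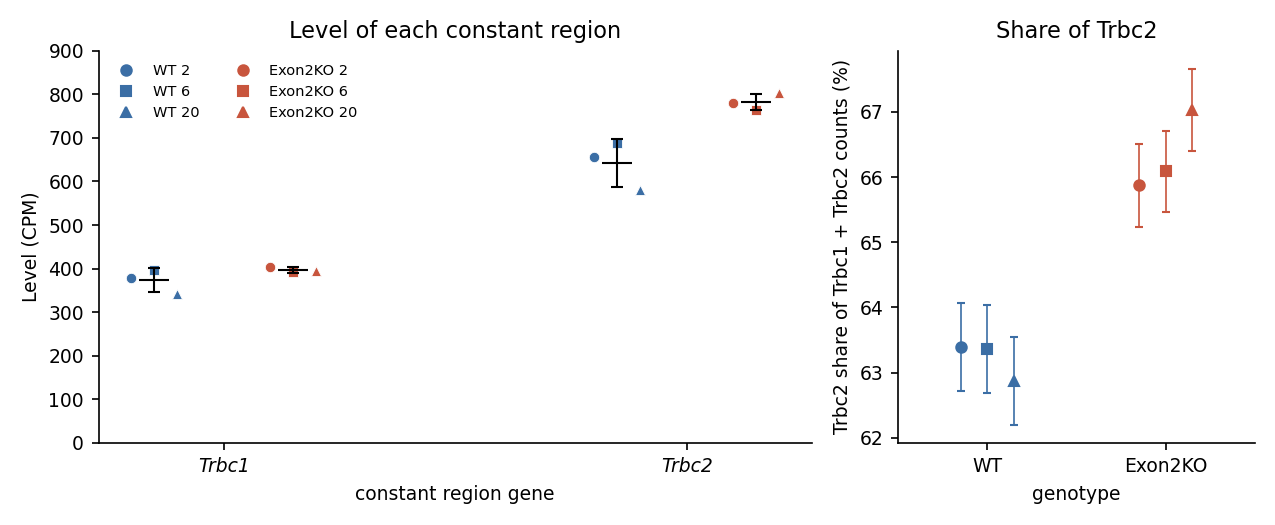
The left panel shows the CPM of Trbc1 and Trbc2 in each library, with a black line at the mean and bars for the SD of 3 libraries, and the right panel shows the share of Trbc2 in the counts of both, with 95% Wilson intervals on an axis that does not start at 0. The Trbc2 shares of the Exon2KO libraries, 65.9% to 67.0%, lie above those of WT, 62.9% to 63.4%, while the Trbc1 levels overlap.

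The summed level of the beta V segments, like that of the constant regions, lay higher in the Exon2KO libraries. The 25 V segments together had 390.4, 402 and 392 CPM in the WT libraries numbered 2, 6 and 20, and 446, 423 and 463 CPM in the Exon2KO libraries. The constant regions together had 1037, 1085 and 923 CPM in WT and 1184, 1157 and 1198 CPM in Exon2KO. In both sums every Exon2KO library was above every WT library, and the ratio of the means was 1.12 for V and 1.16 for C. The 14 J segments together overlapped between the genotypes, at 62.9, 53.6 and 46.2 CPM in WT and 69.6, 62.2 and 48.5 CPM in Exon2KO, with a ratio of 1.11. Within each number the Exon2KO library was the higher for J as well. In both genotypes the library numbered 20 was the lowest for J.

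The V segments differed widely in level. Trbv13-2 (chr6:41121396-41121832) was the most abundant V segment per length, at 137 ± 8.60 CPM per kilobase in WT and 159.8 ± 12.3 in Exon2KO (SD, n = 3). Trbv3 followed in WT at 83.7 ± 12.1 CPM per kilobase, then Trbv20 at 77.1 ± 1.77, Trbv16 at 71.5 ± 2.74 and Trbv19 at 64.3 ± 7.40. Within 1 SD, Trbv3 overlapped Trbv20 and Trbv16 overlapped Trbv19, so these neighbours in the order were not separated by their spread, while Trbv20 lay above Trbv16. In Exon2KO, Trbv16 stood at 89.4 ± 22.4 CPM per kilobase and Trbv3 at 81.5 ± 11.7, again within their spread.

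Trbv13-2 took 11.3%, 11.4% and 12.7% of all beta V counts in the WT libraries numbered 2, 6 and 20, and 11.5%, 12.4% and 12.8% in the Exon2KO libraries. The shares overlapped between the genotypes although its level did not, at 44.1, 45.8 and 49.8 CPM in WT and 51.3, 52.5 and 59.1 CPM in Exon2KO. Its log2 fold change was 0.22 (SE 0.09), with an adjusted p of 0.348 in edgeR's test. The close relatives Trbv13-3 and Trbv13-1 had log2 fold changes of 0.35 (SE 0.15) and 0.20 (SE 0.14). They were 0.20 for Trbv13-3 without the Exon2KO library numbered 20 and 0.099 for Trbv13-1 without the Exon2KO library numbered 2. Trbv13-3 had 17.7, 17.6 and 15.5 CPM in WT and 20.7, 18.5 and 25.7 CPM in Exon2KO, without overlap, and an adjusted p of 0.363. In 50-base windows these relatives could be told apart almost throughout, with 99.7% of Trbv13-2 and of Trbv13-3 unique.

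Trbv2 (chr6:41047340-41047995) had the largest positive fold change among the tested V segments. It had 24.4, 27.8 and 21.9 CPM in the WT libraries numbered 2, 6 and 20, and 35.7, 37.3 and 26.8 CPM in the Exon2KO libraries. Within each number the Exon2KO library was the higher, but the groups overlapped, because the Exon2KO library numbered 20 lay below the WT library numbered 6. The log2 fold change was 0.43 (SE 0.15), with an adjusted p of 0.225 in edgeR's test, and with the column number as a block it was 0.43 with an adjusted p of 0.00683. As a share of V counts Trbv2 took 6.24%, 6.91% and 5.58% in WT and 8.02%, 8.83% and 5.79% in Exon2KO, which also overlapped.

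Trbv30 (chr6:41281376-41281990), a minor V segment and the member of the V array closest to the D and J segments on the plus strand, was the tested V segment with the lowest fold change. It had 49, 58 and 60 counts in the WT libraries numbered 2, 6 and 20, and 22, 20 and 43 in the Exon2KO libraries, or 2.63, 3.19 and 2.82 CPM against 1.22, 1.03 and 2.42 CPM. Every Exon2KO library was below every WT library, with the Exon2KO library numbered 20 close to WT. This gave a log2 fold change of −0.89 (SE 0.36), with an adjusted p of 0.348 in edgeR's test and 0.0821 with the column number as a block. Without each library in turn it lay between −1.36, without the Exon2KO library numbered 20, and −0.67. Its share of V counts was 0.729% ± 0.0607 in WT and 0.346% ± 0.153 in Exon2KO (SD, n = 3). The 95% Wilson interval of the Exon2KO library numbered 20, 0.388% to 0.703%, overlapped that of the WT library numbered 2, 0.510% to 0.890%.

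Trbv30 was the single V segment of the 25, or 4%, whose share of V counts did not overlap between the genotypes. The V counts behind these shares numbered 7270 to 8355 per library. The effective number of V segments, the exponential of the Shannon entropy of the shares, was 16.4 ± 0.417 in WT and 16.1 ± 0.104 in Exon2KO (SD, n = 3), and the libraries of both genotypes overlapped. The shares of the other 24 V segments overlapped. Among them, Trbv1, Trbv15, Trbv20 and Trbv31 had log2 fold changes of 0.25 (SE 0.11), 0.05 (SE 0.12), 0.03 (SE 0.13) and 0.21 (SE 0.12). Those of Trbv3, Trbv12-2 and Trbv16 were −0.04 (SE 0.14), −0.11 (SE 0.18) and 0.32 (SE 0.16), and none of these 7 was called. Within each number, the Exon2KO share was the higher all 3 times for 4 of the 25 V segments, Trbv13-2, Trbv2, Trbv1 and Trbv29. It was the lower all 3 times for 6, namely Trbv3, Trbv15, Trbv12-2, Trbv30 and the scarce Trbv5 and Trbv21. No test was made on these shares and no like count over all genes, so no shift in V usage is read from them. Trbv31, which lies downstream of Trbc2 on the minus strand and joins by inversion, took 6.23% ± 0.948 of V counts in WT and 6.40% ± 0.159 in Exon2KO. Without both libraries numbered 20, 9 of the 25 V segments had shares that did not overlap, in a comparison of 2 libraries with 2. Fewer libraries have to be kept apart there, so this count cannot be set against that of all 6 libraries.

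**Figure D3:**
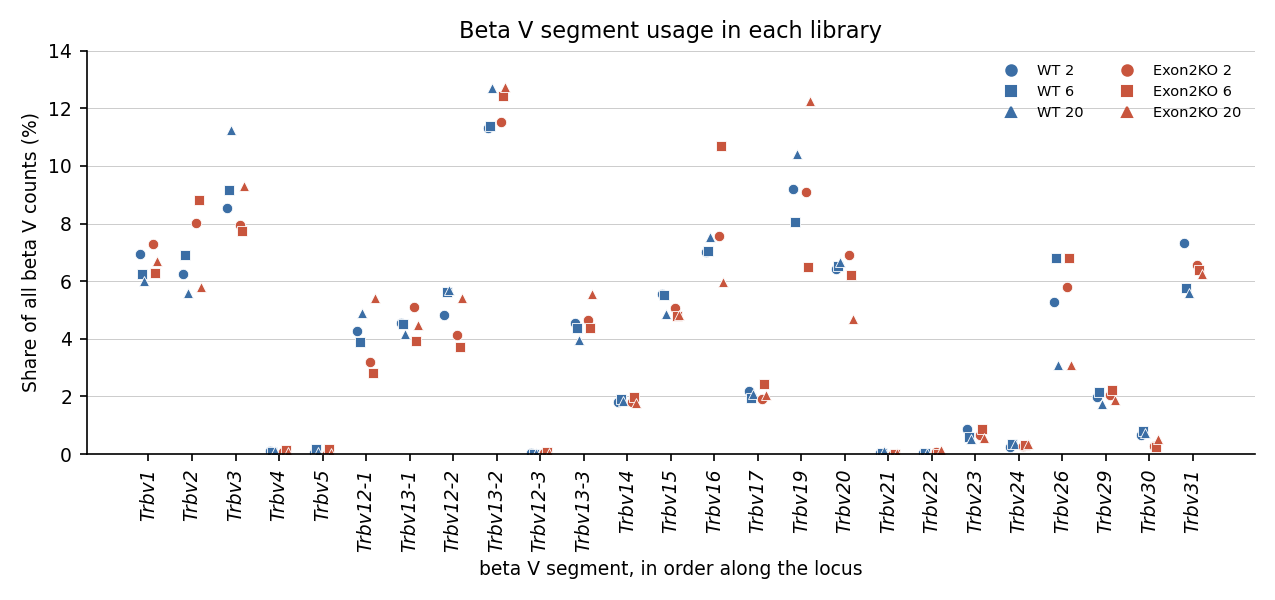
The share of all beta V counts in percent is shown for each of the 25 V segments in order along the locus, with 1 point per library, colours for the genotype and shapes for the number in the column name. The points of the genotypes overlap for 24 segments, and those of Trbv26 and Trbv19 separate by shape rather than by colour.

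The column numbers were compared as well. In a test of the number within the block fit, added after the data had been seen, edgeR called 3 of the 41 tested members (Trbv26, Trbv19 and Trbv12-1). The background was 10.4% of tested genes, so this count is not above it. The test was made on the counts of each gene, not on the shares of V counts given here. Trbv26 (chr6:41227505-41227993) took 5.27%, 6.80% and 3.08% of V counts in the WT libraries numbered 2, 6 and 20, and 5.80%, 6.79% and 3.10% in the Exon2KO libraries. Libraries of one number were close to each other, and both libraries numbered 20 were lowest. For the counts of Trbv26, the adjusted p of the number was 9.82e-05 in edgeR's test. Between the genotypes, its log2 fold change was 0.20 (SE 0.37), with an adjusted p of 0.919.

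Trbv19 (chr6:41178375-41179048) was highest in both libraries numbered 20 and lowest in both numbered 6. Its shares were 9.20%, 8.06% and 10.4% in the WT libraries numbered 2, 6 and 20, and 9.09%, 6.50% and 12.2% in the Exon2KO libraries. For its counts, the adjusted p of the number was 0.0356 in edgeR's test. Trbv12-1 had the same order of numbers, at 4.26%, 3.89% and 4.91% in WT and 3.21%, 2.81% and 5.41% in Exon2KO, and an adjusted p of 0.0403 for its counts in edgeR's test. What the number stands for is not given in the sources used here. Other segments were high or low in 1 library, such as Trbv16, at 45.3 CPM in the Exon2KO library numbered 6 and between 27.4 and 33.7 CPM in the other 5 libraries, and its log2 fold change was 0.10 without that library.

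Over all V segments, the WT and Exon2KO libraries numbered 20 differed by 6.17 percentage points of V counts that would have to be moved between segments to make them alike. The pairs numbered 2 and 6 differed by 4.72 and 8.26 points. The largest distance, 14.6 points, was between the Exon2KO libraries numbered 6 and 20, and the smallest, 4.52 points, between the WT libraries numbered 2 and 6. Distances within a genotype and between the genotypes thus covered overlapping ranges.

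**Figure D4:**
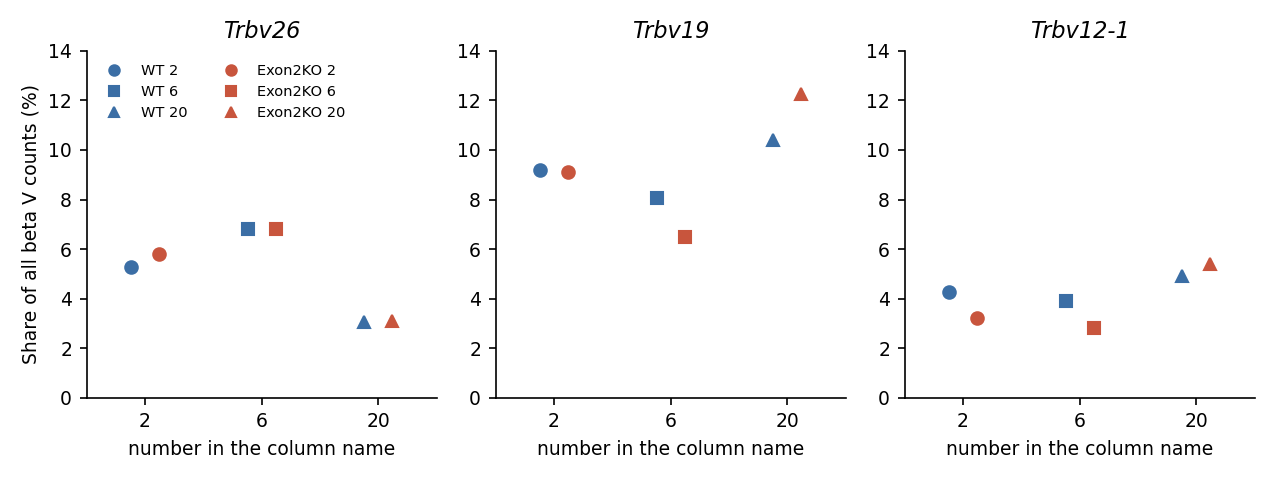
The share of all beta V counts in percent is shown for Trbv26, Trbv19 and Trbv12-1 by the number in the column name, with 1 point per library and colours for the genotype. Trbv26 is lowest in both libraries numbered 20, near 3.1%, and Trbv19 and Trbv12-1 are highest there.

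The remaining V members were at low levels. Trbv14, Trbv17 and Trbv29 took 1.74% to 2.44% of V counts in any library, and their log2 fold changes were 0.16, 0.21 and 0.24 (SE 0.16, 0.16 and 0.17). Trbv23 and the pseudogene Trbv24 took under 1% and had log2 fold changes of 0.21 (SE 0.29) and 0.23 (SE 0.34). Trbv21, Trbv22, Trbv12-3, Trbv4 and Trbv5 had at most 14 counts in any library and were not tested. Trbv4 and Trbv5 overlap the gene 5830405F06Rik, with which they share most of their sequence, since 27.9% and 22.6% of their 50-base windows were unique.

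Reads on the J segments were few, with 862 to 1253 counts per library over the 14 members, each segment being 46 to 54 bases long. The segments of the Trbj2 cluster took 41.5%, 46.0% and 44.0% of J counts in the WT libraries numbered 2, 6 and 20, and 45.1%, 45.2% and 48.4% in the Exon2KO libraries. The groups overlapped, at 43.9% ± 2.27 and 46.2% ± 1.87 (SD, n = 3). Of 14 J segments, 1, or 7.14%, had a share of J counts that did not overlap between the genotypes.

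That segment was Trbj1-1 (chr6:41533864-41533911), whose sequence is printed above. It had 25, 18 and 25 counts in the WT libraries numbered 2, 6 and 20, and 11, 17 and 11 in the Exon2KO libraries. As a share of J counts this was 2.18% ± 0.347 in WT and 1.19% ± 0.273 in Exon2KO (SD, n = 3). Every Exon2KO library was below every WT library, but the 95% Wilson intervals of the closest pair overlapped, at 1.17% to 2.91% for the WT library numbered 6 and 0.877% to 2.23% for the Exon2KO library numbered 6. The log2 fold change was −0.73 (SE 0.38), with an adjusted p of 0.535 in edgeR's test.

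Trbj2-7 (chr6:41543810-41543856), the last J segment before Trbc2, had the largest mean share of J counts, 12.5% ± 1.87 in WT and 14.9% ± 2.69 in Exon2KO (SD, n = 3), with overlap. Within 1 SD these shares met those of Trbj1-5, at 10.5% ± 1.37 and 12.4% ± 1.58. In the WT library numbered 2, Trbj1-5 took 12.1% and Trbj2-7 10.5%. The level of Trbj2-7 did not overlap, at 6.60, 7.60 and 5.96 CPM in WT and 8.95, 8.72 and 8.72 CPM in Exon2KO. Its log2 fold change was 0.39 (SE 0.17), with an adjusted p of 0.402 in edgeR's test. Trbj2-4 had the largest positive fold change of the tested members, 0.58 (SE 0.49), on 13 to 49 counts per library, and between 0.21 and 0.95 without each library in turn. Its levels overlapped, with the lowest value in the Exon2KO library numbered 20 and the highest in the Exon2KO library numbered 2. Trbj1-5 had a log2 fold change of 0.35 (SE 0.24) and Trbj1-2 one of −0.17 (SE 0.29), both with overlap. Without 1 library, Trbj1-5 ranged from 0.20, without the WT library numbered 20, to 0.60, without the WT library numbered 2. The pseudogene Trbj2-6, which lacks the letters marked in its neighbours, still had 65 to 89 counts per library and a log2 fold change of 0.08 (SE 0.22).

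The other 8 J members had log2 fold changes between −0.07 for Trbj2-2 and 0.29 for Trbj2-3, and the libraries of both genotypes overlapped in each of them. The D segments Trbd1 and Trbd2, 12 and 14 bases long, had 52 to 78 and 14 to 29 counts per library. Their log2 fold changes were 0.24 (SE 0.26) and −0.10 (SE 0.40), with overlap. At such lengths a read that touches a D or J segment also covers its neighbours, and how such reads were assigned is not given in the sources used here.

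Among the gamma members, Tcrg-C4 had the lowest fold change of all tested members. It had 76, 84 and 76 counts in the WT libraries numbered 2, 6 and 20, and 29, 33 and 45 in the Exon2KO libraries, or 4.08, 4.63 and 3.57 CPM against 1.61, 1.69 and 2.53 CPM. Every Exon2KO library was below every WT library. Its log2 fold change was −1.07 (SE 0.28), with an adjusted p of 0.104 in edgeR's test. With the column number as a block it was −1.08 with an adjusted p of 0.0190, and without both libraries numbered 20 it was −1.39 with an adjusted p of 0.0498. All 50-base windows of the Tcrg-C4 transcript were unique among the annotated transcripts.

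Tcrg-C1 and Tcrg-C2 gave other values. Tcrg-C1 had 5.53, 6.06 and 3.71 CPM in WT and 5.28, 5.28 and 5.18 CPM in Exon2KO, with a log2 fold change of 0.04 (SE 0.23). Tcrg-C2 had 3.06, 3.14 and 1.97 CPM in WT and 2.17, 1.90 and 2.64 CPM in Exon2KO, with a log2 fold change of −0.28 (SE 0.30). Both overlapped between the genotypes, and in both the WT library numbered 20 was the lowest of WT. These copies resemble each other more closely, with 65.8% of the windows of Tcrg-C1 and 74.6% of those of Tcrg-C2 unique. Tcrg-C3 had 0 to 3 counts per library, where 0 counts in the Exon2KO library numbered 2 allow a level of up to 0.167 CPM.

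**Figure D5:**
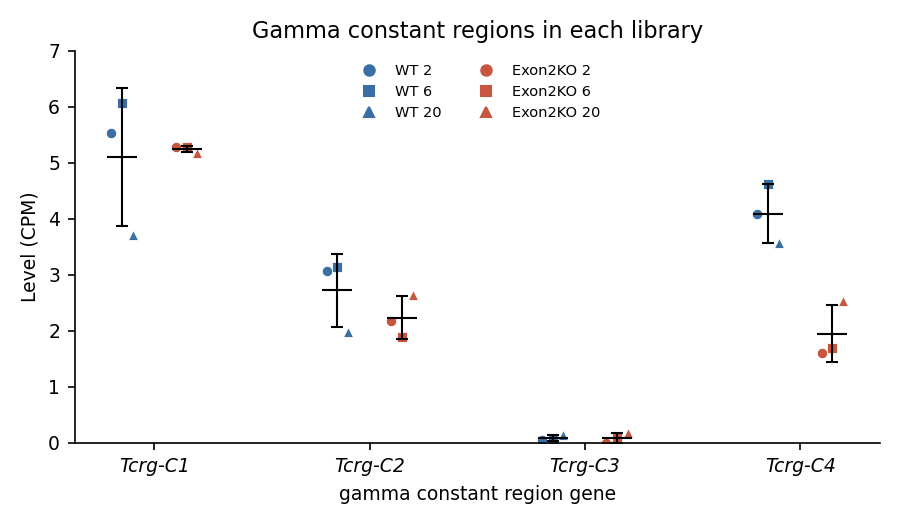
The CPM of the 4 gamma constant regions is shown for each library, with colours for the genotype, shapes for the number in the column name, a line at the mean and bars for the SD of 3 libraries. Tcrg-C4 lies between 3.57 and 4.63 CPM in WT and between 1.61 and 2.53 CPM in Exon2KO, while the points of Tcrg-C1, Tcrg-C2 and Tcrg-C3 overlap.

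The gamma V and J members were near the limit of detection. The 3 V members together had 10 to 17 counts per library and the 3 J members 17 to 29. Tcrg-V1 had 11, 8 and 8 counts in the WT libraries numbered 2, 6 and 20, and 8, 5 and 0 in the Exon2KO libraries. Trgj4, the J segment beside Tcrg-C4, counted 7, 13 and 9 reads in the WT libraries against 7, 6 and 18 in the Exon2KO libraries. The levels of both overlapped at this depth. For Tcrg-V6 the WT libraries held 2, 0 and 1 counts against 2, 4 and 8 in the Exon2KO libraries. Tcrg-V6 reached the limit of 10 counts only through the Exon2KO libraries, so no direction is read from it. At the limit of 10 counts, Tcrg-C3 was included with a sum of 10, Trbv12-3 with 14 and Tcrg-V6 with 17, while Trbv25 with 8, Tcrg-V7 with 4 and Tcrg-V4 and Tcrg-V5 with 3 each stayed outside.

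Markers of gamma-delta T cells are given beside this result, and their part in it was not tested. Trdc, the delta constant region, had 3.60, 5.56 and 3.94 CPM in WT and 3.56, 6.10 and 5.57 CPM in Exon2KO, with a log2 fold change of 0.22 (SE 0.28) and an adjusted p of 0.868 in edgeR's test. Of the 9 listed markers, 5 were tested and 0 were called, with or without the block, and 0 had an unadjusted p under 0.05 in edgeR's test without it. Their summed level was 189 to 262 CPM in WT and 94.1 to 287 CPM in Exon2KO, most of it Maf, a factor that Tregs also express. Sox13, Trdv4 and Tcrg-V6 were each under 0.5 CPM in every library. Within this range Trdv4 overlapped between the genotypes. Sox13 and Tcrg-V6 did not overlap in CPM, on at most 6 and 8 counts per library. However, their closest WT and Exon2KO libraries held equal counts, 3 for Sox13 and 2 for Tcrg-V6. The gap between these libraries comes from library scaling alone, so no direction is read from it. Sox13 had 1, 3 and 0 counts in the WT libraries numbered 2, 6 and 20 against 6, 6 and 3 in the Exon2KO libraries.

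Genes of the receptor complex and of recombination were read from the same fit. Of 20 genes, 16 were tested, 2 were higher in Exon2KO and 0 were lower, beside 2.33% of all tested genes called in either direction. The median log2 fold change of the 16 was 0.16. Among the higher genes was Tcf7, a transcription factor of resting T cells, at 0.82 (SE 0.08, adjusted p = 0.00151 by edgeR's quasi-likelihood test). With the column number as a block Bcl11b, a T cell lineage factor, was also higher (adjusted p = 0.0325). Without the Exon2KO library numbered 2, 1 of the genes was called. In that fit 22 of all 15448 tested genes were called higher and 64 lower. With all libraries these numbers were 113 and 235 of 14919.

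The partners of the beta chain in the receptor were not called. Trac, the alpha constant region, had 439, 539 and 491 CPM in WT and 499, 543 and 499.9 CPM in Exon2KO, with a log2 fold change of 0.07 (SE 0.09) and an adjusted p of 0.870 in edgeR's test. Its groups overlapped. The CD3 chains Cd3d, Cd3e and Cd3g had log2 fold changes of 0.05, 0.02 and −0.01, and Cd247, the zeta chain, one of 0.19 (adjusted p = 0.405, and 0.0555 with the column number as a block). Cd247 had 232, 267 and 264 CPM in the WT libraries numbered 2, 6 and 20, and 274, 308 and 288 CPM in the Exon2KO libraries, without overlap. Whether the fold changes of Trbc2 and Trac differ was not tested. The genes of recombination were at or near 0, with Rag2 and Ptcra, the surrogate alpha chain of thymocytes, at 0 counts in every library and Rag1 and Dntt under 1 CPM.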

How the data were processed

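RNA was sequenced from Tregs of 3 WT and 3 Exon2KO samples. The authors deposited raw counts per gene for each library in 1 table, with group means (a signal on a common library scale), log2 fold changes, p-values and adjusted p-values of their own comparison, per the file headers. HISAT2 2.0.5, StringTie 1.3.3b, featureCounts 1.5.0-p3, DESeq2 1.16.1 and mm10 are named in the submitters' processing notes. Their settings, the annotation, strand use and the handling of reads that match several segments are not given in the sources used here. All 53 members have the position that GENCODE M21 gives them.

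The deposited counts of all 6 libraries were fitted over the whole table with edgeR 4.0.16 (TMM, filterByExpr, robust quasi-likelihood test, two-sided, Benjamini-Hochberg over 14919 genes, threshold 0.05). SE denotes the standard error of the log2 fold change. CPM was computed with TMM-scaled library sizes, in which 3 counts are 0.141 to 0.169 CPM. Levels per length are CPM per kilobase of the deposited gene length, and 6 per-sample columns of another unit were not used. Shares were computed per library, with Wilson intervals. DESeq2 1.42.0, limma 3.58.1 (voom), other scalings and filters and left-out libraries were alternatives. The fits were tested on simulated data, where the fit without the block missed more of the 2-fold changes than the fit with it. Each fit was run on counts simulated with its own noise, so this difference does not compare the fits.

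The columns carry the numbers 2, 6 and 20 and not the titles' replicate numbers. Same-numbered libraries deviated together from their group means (correlations of 0.271, 0.369 and 0.494 over 14919 genes), so the number served as a block in a paired fit. No pair of replicates was alike within sampling noise. Values of 1 gene of the receptor complex list are not reported here. Members and gene lists were chosen with earlier results of these data known. The members named are those with calls, the 10 V segments with the highest mean CPM, all C, D, J and gamma members and the 5 tested members with the largest fold changes in each direction. The other V members are named so that every member is accounted for.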

Additional observations from a re-analysis of the deposited data

How the results depend on the processing

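The count of called members stayed at 0 without a filter, with at least 10 counts in every library, with the other scalings, with DESeq2 and limma-voom, and without each library in turn (0 to 0). It was 3 with the replicate block (the number in the column names) and 1 without both libraries numbered 20, an alternative chosen after the data had been seen. The block changed no other call among the members. The beta median ranged from 0.079 to 0.22 without each library in turn, the gamma median from −0.41 to 0.029. Over more, thinly covered segments, the gamma median was −0.023 without a filter and −0.015 in DESeq2, and it was −0.49 without both libraries numbered 20. The V segments with shares that did not overlap numbered 1 to 7 without 1 library and 9 without both libraries numbered 20, where fewer libraries have to be kept apart. The Trbc2 share differed by 2.77 to 3.35 points without 1 library and by 2.60 points without both numbered 20. The receptor complex list had 1 to 2 calls without 1 library. Without both libraries numbered 20 the log2 fold changes of Trbv15 (−0.037), Trbv19 (−0.010), Trbj2-5 (0.077) and Tcrg-C1 (−0.13) had the opposite sign. Without 1 library the sign changed for Trbv3 (−0.16 to 0.079), Trbv12-1 (−0.40 to 0.18), Trbv12-2 (−0.33 to 0.022), Trbv15 (−0.016 to 0.098), Trbv19 (−0.10 to 0.41), Trbv20 (−0.11 to 0.14), Trbv26 (−0.061 to 0.50), Trbd2 (−0.29 to 0.22), Trbj1-2 (−0.50 to 0.049), Trbj1-4 (−0.069 to 0.19), Trbj1-6 (−0.20 to 0.25), Trbj2-2 (−0.31 to 0.069), Trbj2-5 (−0.38 to 0.26), Trbj2-6 (−0.020 to 0.15) and Tcrg-C1 (−0.14 to 0.19), none of which was called. Of the 41 tested members, another 18 kept their sign but moved by over 1.5 times without 1 library, and 8 stayed within 1.5 times (Tcrg-C4, Trbc2, Trbj1-1, Trbj2-7, Trbv1, Trbv2, Trbv13-2 and Trbv14). The cause of these changes was not tested. Depth limits the J, D and gamma segments, with at most 170 counts per library for any J segment.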
